A study of Mus musculus with 75 samples.

Results

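The genes described here are 9 transcription factor genes of the hair cell lineage, Pou4f3, Gfi1, Barhl1, Lhx3, Insm1, Nhlh1, Eya1, Bcl11b and Tbx2, followed through 5 groups of single cells from the mouse cochlea. They were taken by name as 9 of the 55291 gene rows of the count table. Single-cell RNA-Seq was performed on 75 cells that were hand picked, with the whole transcript amplified to cDNA. The 17 WT_P30 OHCs (outer hair cells, the cells that amplify sound) came from Slc26a5 CreER/+; Ai9/+ mice that were given tamoxifen at P20 and P21 and were collected at P30. The 16 WT_P60 SCs (supporting cells, mainly pillar and Deiters cells) came from Fgfr3-iCreER+; Ai9/+ mice with tamoxifen at P30 and P31. The other 42 Tdtomato+ cells came from Fgfr3-Atoh1-Ikzf2-DTR mice, also at P60, and are called induced cells below. There, tamoxifen on P30 and P31 switched on Atoh1 and Ikzf2 transgenes in SCs through Fgfr3-iCreER, and diphtheria toxin at P36 (20 ng/g) killed OHCs, which carried the toxin receptor from Slc26a5. All mice were labelled C57BL/6, and every cell analysed had been marked through a tamoxifen-inducible Cre.

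The study divided the 42 induced cells after sequencing by Myo7a and Prestin (Slc26a5) into 11 OHC-like cells with both, 16 nascent HCs with Myo7a only, and 15 SCs failing to become HCs (failing SCs below) with neither. These labels were kept, although some cells had reads of the marker they were said to lack. Slc26a5 averaged 1.94 ± 4.38 CPM (SD, n = 16) in nascent HCs and Myo7a 3.31 ± 8.38 CPM (SD, n = 15) in failing SCs. None of the 9 genes was used for that division, but Myo7a and Slc26a5 were, so levels that move with these markers follow the way the groups were made. Every test takes the cell as its unit. The sources used here do not name the number of mice per group, so p-values measure only the spread between these cells. Each cell had between 4264780 and 22934062 counts on genes. The median number of genes at 1 CPM (counts per 1e6 counts of the cell) or more was 4777 in WT_P30 OHCs, 6872.5 in WT_P60 SCs, 8488 in OHC-like cells, 8066.5 in nascent HCs and 6977 in failing SCs. Each wild-type group was a library run of its own, so that group and run cannot be told apart there, while the induced cells were spread over 5 runs, A to E. This spread was uneven. Failing SCs lay in runs A (4 cells), C (10) and E (1), and most OHC-like cells and nascent HCs in B, D and E. Differences between failing SCs and the other induced cells are therefore hard to tell apart from run. OHC markers (Slc26a5, Ocm, Chrna10 and Lbh, summed) were between 11433 and 41754 CPM in WT_P30 OHCs, between 27.1 and 5628 CPM in OHC-like cells and at most 41.9 CPM in WT_P60 SCs. In nascent HCs they had a median of 3.02 CPM but reached 6482 CPM in 1 cell, above every OHC-like cell, and in failing SCs they were at most 24.2 CPM. SC markers (Sox2, Sox10, Gjb2, Gjb6 and Fgfr3, summed) lay between 1244 and 8033 CPM in WT_P60 SCs, between 158 and 625 CPM in OHC-like cells and at or below 210 CPM in WT_P30 OHCs. They spanned 58.8 to 883 CPM in nascent HCs and 169 to 2428 CPM in failing SCs. Of the 3 neuronal markers Nefl, Nefm and Tubb3, the sum had a median under 1 CPM in every group (highest single cell 861 CPM, a nascent HC). Pecam1, an endothelial gene, averaged 78.3 ± 107 CPM (SD, n = 16) among WT_P60 SCs and 1.36 CPM or less in the induced groups, and limma-trend called it lower in all 3 of these. Hemoglobin genes summed to 2530 CPM in 1 OHC-like cell and had a median of 0 in every group. Their part in the results was not tested. No wild-type cell had a read of Mbp, a myelin gene of glia. The OHC-like mean of Mbp was 71.8 ± 63.7 CPM (SD, n = 11), the nascent HC mean 38.6 ± 46.4 CPM (SD, n = 16) and the failing SC mean 4.53 ± 12.3 CPM (SD, n = 15), and the part of this in the results was not tested.

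Hair cells are made under the control of Atoh1, a basic helix-loop-helix factor that starts the hair cell program in progenitors. Pou4f3, a POU homeodomain factor, follows Atoh1 and is required for hair cells to mature and survive, and the zinc-finger repressor Gfi1 acts downstream of it. Barhl1 and Lhx3 are homeodomain factors of developing and mature hair cells. Insm1 is a zinc-finger factor that immature OHCs carry for a short time and that keeps them from an inner hair cell fate, Nhlh1 is a helix-loop-helix factor of young neurons and sensory cells, and Eya1 is a transcription cofactor that acts early in the ear. Tbx2 is known for setting inner hair cell identity, and Bcl11b for its part in T cells and projection neurons.

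The promoters of Barhl1, Gfi1 and Lhx3 are shown because these genes, absent from WT_P60 SCs, were on together in many induced cells. The windows come from RefSeq on GRCm38.p6 and run 5′ to 3′ from 250 bases before to 50 after the start site that lies furthest upstream. Capitals mark the E-box CANNTG, the core that Atoh1 and other basic helix-loop-helix factors bind, which reads the same on both strands.
Barhl1, chr2:28916619-28916918, minus strand: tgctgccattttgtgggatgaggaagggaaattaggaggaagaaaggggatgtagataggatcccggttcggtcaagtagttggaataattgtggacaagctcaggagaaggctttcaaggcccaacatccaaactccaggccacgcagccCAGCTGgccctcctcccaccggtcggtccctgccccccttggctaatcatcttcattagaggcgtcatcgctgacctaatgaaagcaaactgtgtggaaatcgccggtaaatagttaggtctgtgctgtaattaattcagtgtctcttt
Gfi1, chr5:107725756-107726055, minus strand: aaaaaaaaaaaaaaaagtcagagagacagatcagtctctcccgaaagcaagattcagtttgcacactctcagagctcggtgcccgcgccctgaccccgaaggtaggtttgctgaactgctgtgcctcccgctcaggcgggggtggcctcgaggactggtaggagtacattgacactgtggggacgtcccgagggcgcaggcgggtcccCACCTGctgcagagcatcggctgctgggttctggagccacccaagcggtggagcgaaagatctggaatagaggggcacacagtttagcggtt
Lhx3, chr2:26208200-26208499, minus strand: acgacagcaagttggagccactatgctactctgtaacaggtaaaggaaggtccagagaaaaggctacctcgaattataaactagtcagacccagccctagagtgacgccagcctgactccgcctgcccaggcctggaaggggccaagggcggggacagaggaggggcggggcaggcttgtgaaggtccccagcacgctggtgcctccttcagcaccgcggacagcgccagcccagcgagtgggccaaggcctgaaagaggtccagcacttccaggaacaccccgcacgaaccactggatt
The Barhl1 window held 1 E-box, of the form CAGCTG, and also 1 copy of TAATTA, a core of homeodomain binding, which like CAGCTG equals its own reverse complement and does not overlap the E-box. The Gfi1 window held 1 E-box, CACCTG, and the Lhx3 window held 0. Of all 32851 promoter windows in the table, 72.3% held CANNTG, 16.3% held CAGCTG and 5.29% held TAATTA, so an E-box in such a window is common. The windows of Nhlh1 and Bcl11b, the other members matched (5 of 9 in all), held 2 and 0 E-boxes. A match of letters is a description of the window and not of binding.

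In the 17 WT_P30 OHCs, Pou4f3 had the highest mean level per length of the 9 genes, with 258 CPM per kb of exon, followed by Gfi1 with 68.2, Barhl1 with 27.4, Eya1 with 16.8 and Lhx3 with 10.5. The levels of Tbx2, Insm1, Nhlh1 and Bcl11b per length were below 1 CPM per kb. In OHC-like cells the order differed. Lhx3 came first with a mean of 89.8 CPM per kb, then Barhl1 with 63.7 and Insm1 with 37.5. The 26.4 CPM per kb of Pou4f3 in that group came almost wholly from 1 cell. In WT_P60 SCs, Eya1 (34.9 CPM per kb) was the only one of the 9 above 1 CPM per kb.

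**Figure D1:**
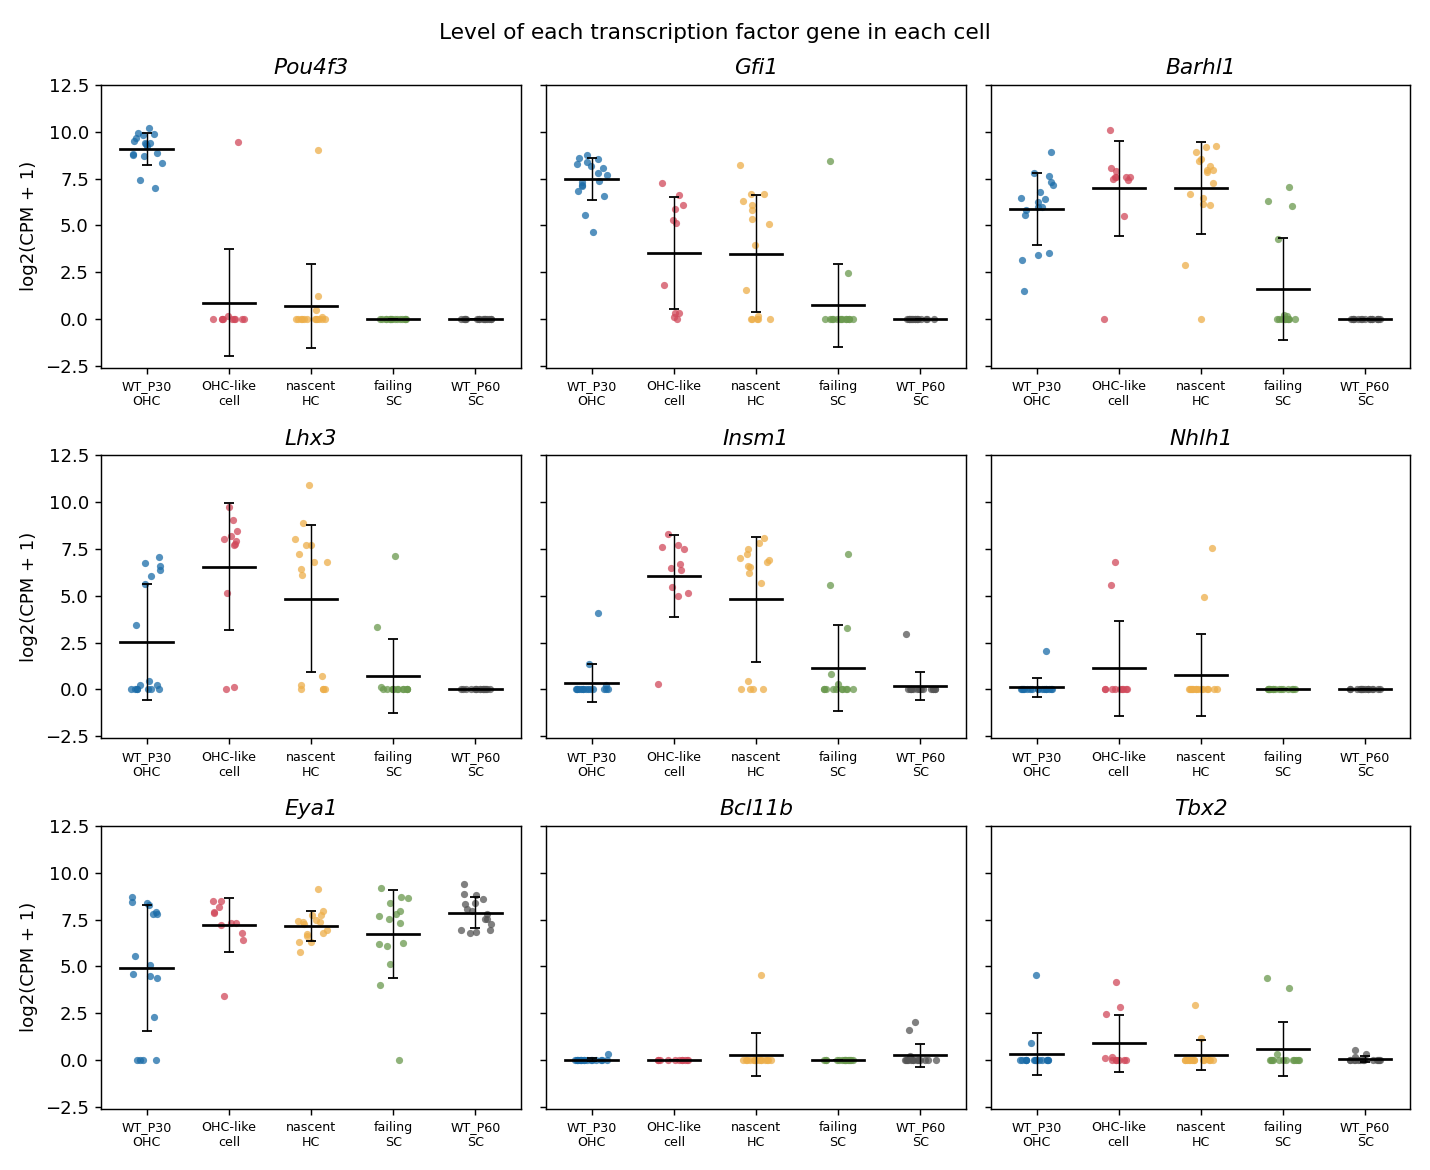
Level of each of the 9 genes on the scale log2(CPM + 1) (y axis) in every cell, one panel per gene, with one column of points per group. Thick lines mark the group means and error bars 1 SD. Pou4f3 is high in 17 of 17 WT_P30 OHCs and at or near 0 in nearly all induced cells, whereas Barhl1 is on in 10 of 11 OHC-like cells and 15 of 16 nascent HCs.

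A count model and a log-scale model were used for tests, because most of the 9 genes were either clearly on or at 0 in a given cell. edgeR's quasi-likelihood test compares mean counts, so that 1 cell with many reads can carry a group. limma-trend on log2(CPM + 1), which was added after the data had been seen, follows how many cells carry the gene. Both were fitted to the 11443 genes with enough counts, and a gene was called at a Benjamini-Hochberg adjusted p under 0.001 over these genes with a difference over 2 on the log2 scale. A total of 6 members passed the filter on low counts, and Nhlh1, Bcl11b and Tbx2 did not. Pou4f3, Gfi1, Barhl1 and Lhx3 had no read in WT_P60 SCs and so passed only through groups in which they were on. Counts of members called against WT_P60 SCs are therefore a description and not a test of the list. In the comparison of WT_P30 OHCs with WT_P60 SCs, 4 of the 6 were called higher in OHCs by edgeR (Pou4f3, Gfi1, Barhl1 and Lhx3), where 15.3% of all genes tested were called. limma-trend called Pou4f3, Gfi1 and Barhl1 higher and Eya1 lower, with 16.1% of all genes called.

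Pou4f3 (chromosome 18, 42394539 to 42397249, plus strand, GRCm38 with GENCODE M21) separated the wild-type OHCs from nearly every other cell. Its level in WT_P30 OHCs was between 128 and 1191 CPM, with a median of 643 CPM, and the gene was detected at 1 CPM or more in 17 of 17 cells (95% Clopper-Pearson interval 80.5% to 100%). No WT_P60 SC had a read of it (0 of 16 cells, which allows a share of up to 18.8% taken as 3 over the number of cells, and 20.6% by the Clopper-Pearson interval), and neither had any failing SC (0 of 15 cells, up to 20.0% and 21.8% in the same way). Against WT_P60 SCs at a floor of 3 counts per cell, the mean of WT_P30 OHCs was at least 1472-fold higher (adjusted p = 3.77e-06 by edgeR).

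Among OHC-like cells, Pou4f3 was detected in 1 of 11 (9.09%, interval 0.23% to 41.3%). That cell, OHC-like cell 11, had 6781 counts or 696 CPM, within the range of WT_P30 OHCs. OHC-like cell 10 had 1 count, and the other 9 had none. Among nascent HCs, nascent HC 2 reached 523 CPM from 4349 counts (this cell also had 14.7 CPM of Slc26a5, although its group is defined as Prestin negative), nascent HC 11 had 1.36 CPM, a pair of others held 1 and 3 counts, and 12 of 16 had no read. Apart from the single cell at a wild-type level in each group, no OHC-like cell or nascent HC overlapped the WT_P30 OHCs. All 6 cells with any Pou4f3 read belonged to runs D and E, which together held 14 of the 42 cells, and the part of the run in this was not tested.

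The tests of Pou4f3 depended on those cells. By limma-trend the mean log2(CPM + 1) was lower than in WT_P30 OHCs by -8.20 in OHC-like cells (SE 0.66, adjusted p = 5.79e-18) and by -8.40 in nascent HCs (SE 0.60, adjusted p = 3.55e-21). edgeR, which compares means of 63.3 ± 210 CPM (SD, n = 11) and 618 ± 290 CPM (SD, n = 17), gave a log2 fold change of -3.29 for OHC-like cells (SE 1.79, adjusted p = 0.249). Without OHC-like cell 11 the adjusted p of that comparison was 9.87e-06, and without nascent HC 2 that of nascent HCs against WT_P30 OHCs moved from 0.05 to 6.55e-07. Over WT_P60 SCs, edgeR also called Pou4f3 higher in both of these groups (adjusted p = 0.000108 and 0.000171). These calls were lost without OHC-like cell 11 (adjusted p = 0.79) and without nascent HC 2 (adjusted p = 0.116), and limma-trend did not make them (adjusted p = 0.388 and 0.439).

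**Figure D2:**
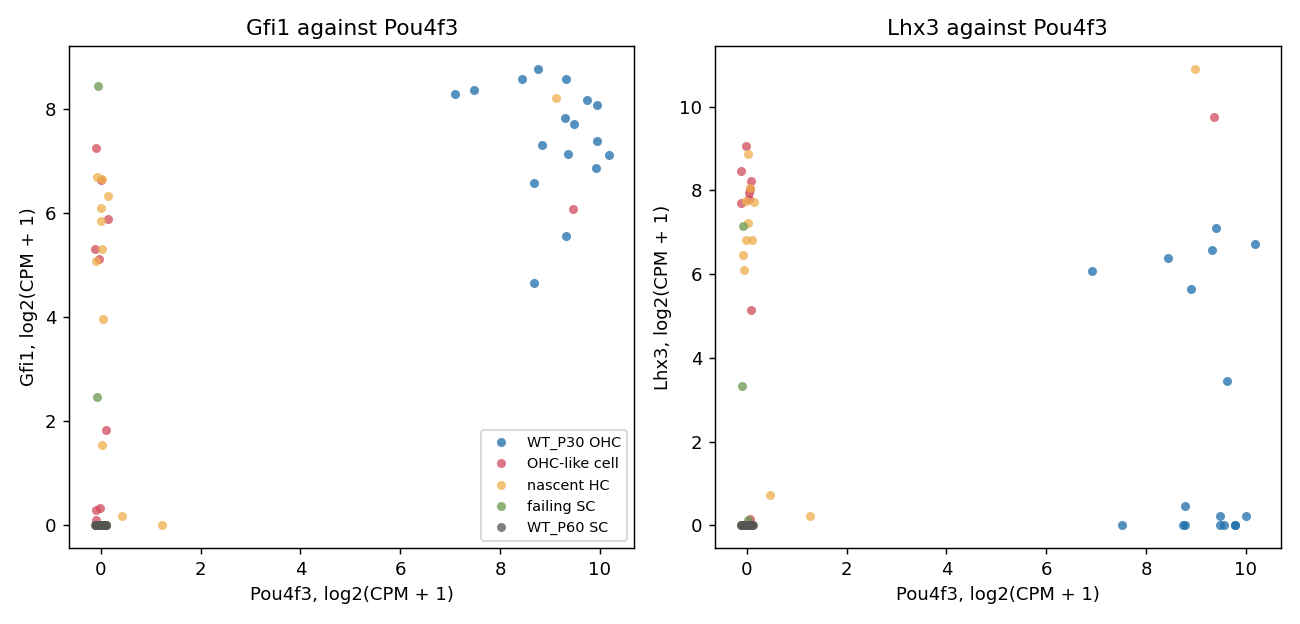
Gfi1 (left) and Lhx3 (right) against Pou4f3, all as log2(CPM + 1), with one point per cell colored by group and a small horizontal jitter to part the points. Of the 42 induced cells, 17 had Gfi1 without Pou4f3, and the points of 2 induced cells, OHC-like cell 11 and nascent HC 2, lie among those of the 17 WT_P30 OHCs on the Pou4f3 axis.

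Gfi1 (chromosome 5, 107716657 to 107726036, minus strand) was present in many induced cells at a lower level than in wild-type OHCs. Its level in WT_P30 OHCs ran from 24.1 to 434 CPM with a median of 207 CPM in 17 of 17 cells. OHC-like cells ran from 0 to 150 CPM (median 33.4 CPM, 7 of 11 cells) and nascent HCs from 0 to 295 CPM (median 23.7 CPM, 10 of 16 cells). No WT_P60 SC had a read. The ranges of OHC-like cells and WT_P30 OHCs overlapped, but every OHC-like cell was below the median of the OHCs.

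Against WT_P60 SCs, the mean level of Gfi1 was at least 97-fold higher among OHC-like cells, and among nascent HCs at least 117-fold (adjusted p = 7.75e-06 and 4.26e-06 by edgeR). The log-scale model called it in nascent HCs (adjusted p = 0.000287) but not in OHC-like cells (adjusted p = 0.00112). Against WT_P30 OHCs, limma-trend placed Gfi1 lower by -3.93 in OHC-like cells (SE 0.86, adjusted p = 0.000175) and by -3.97 in nascent HCs (SE 0.77, adjusted p = 1.87e-05). edgeR gave log2 fold changes of -2.42 (SE 1.49, adjusted p = 0.34) and -2.14 (SE 1.28, adjusted p = 0.286) for the same pairs. Exons of Gfi1 overlap 101 bases of a gene on the opposite strand, A430072P03Rik, and those of Lhx3 overlap 188 bases of Gm27196. Whether the counting used strand is not given in the sources used here.

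Barhl1 (chromosome 2, 28907679 to 28916668, minus strand) was the member that wild-type OHCs and induced hair cells shared most widely. It was detected in 17 of 17 WT_P30 OHCs, between 1.84 and 488 CPM with a median of 75.4 CPM. OHC-like cells held 0 to 1083 CPM (median 192 CPM, 10 of 11 cells) and nascent HCs 0 to 605 CPM (median 239 CPM, 15 of 16 cells). The 16 WT_P60 SCs had no read of it. The OHC-like cells and nascent HCs overlapped the WT_P30 OHCs broadly, and neither model called a difference (edgeR log2 fold changes of 1.22 with SE 1.04 and 1.18 with SE 0.96, adjusted p = 0.554 and 0.49).

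By edgeR, Barhl1 had the smallest adjusted p of the members in every comparison with WT_P60 SCs. The OHC-like mean was at least 593-fold higher (adjusted p = 2.32e-09 by edgeR) and the nascent HC mean at least 577-fold (adjusted p = 1.49e-09), and the calls held in limma-trend (adjusted p = 2.87e-10 and 5.1e-12) and when any single cell was left out. WT_P60 SCs had no read of Barhl1, which passed the filter through groups where it was on, so these values are a description. In failing SCs it was detected in 4 of 15 cells, up to 130 CPM. That group was 5.38 lower on the log2(CPM + 1) scale than OHC-like cells (SE 0.87, adjusted p = 2.63e-06 by limma-trend), while edgeR did not call the difference (log2 fold change 3.67, SE 1.14, adjusted p = 0.0423).

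Lhx3 (chromosome 2, 26200212 to 26208289, minus strand) was split in wild-type OHCs themselves. It was detected in 7 of 17 WT_P30 OHCs, in which it lay between 9.89 and 136 CPM, and the median of the group was 0.165 CPM. OHC-like cells had Lhx3 in 9 of 11 cells, with a range of 0 to 858 CPM and a median of 244 CPM. Nascent HCs had it in 10 of 16, with a range of 0 to 1912 CPM and a median of 98.7 CPM. The highest values belonged to nascent HC 2 and OHC-like cell 11, the induced cells with Pou4f3 at a wild-type level.

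Against WT_P60 SCs, which had no read of Lhx3, OHC-like cells were at least 651-fold and nascent HCs at least 535-fold higher (adjusted p = 4.28e-06 and 4.08e-06 by edgeR), and limma-trend made both calls too. The larger level in OHC-like cells than in WT_P30 OHCs did not pass either threshold (edgeR log2 fold change 3.09, SE 1.49, adjusted p = 0.164, and a limma-trend difference of 4.05, SE 1.07, adjusted p = 0.00204). Failing SCs had Lhx3 in 2 of 15 cells, at 9.08 and 140 CPM.

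Insm1 (chromosome 2, 146221921 to 146225020, plus strand, a gene of 1 exon) was rare in both wild-type groups and common in induced hair cells. It was detected in 2 of 17 WT_P30 OHCs, with a highest value of 15.9 CPM, and in 1 of 16 WT_P60 SCs, at 6.72 CPM. OHC-like cells spanned 0.223 to 318 CPM with a median of 89.4 CPM, and 10 of 11 had it detected, each of them at 30.4 CPM or more. Nascent HCs spanned 0 to 270 CPM with a median of 95.0 CPM, and 11 of 16 had it detected. Among the OHC-like cells, 1 lay within the range of the WT_P30 OHCs, cell 4, which had the fewest detected genes of its group, whereas the nascent HCs without Insm1 overlapped that range.

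Compared with WT_P60 SCs, Insm1 rose in OHC-like cells by a log2 fold change of 8.07 (SE 1.84, adjusted p = 0.000596 by edgeR) and in nascent HCs by 7.76 (SE 1.78, adjusted p = 0.000578). These adjusted p-values were close to the threshold, and leaving out each of the 75 cells in turn lost the calls 12 and 8 times, at an adjusted p of at most 0.00103 and 0.00102. Against WT_P30 OHCs, the log2 fold changes were 6.80 (SE 1.70, adjusted p = 0.00123) and 6.49 (SE 1.64, adjusted p = 0.0012), just short of a call. Both were called without OHC-like cell 4, WT_P30 OHC 6, failing SC 4 or failing SC 7 (and the former without OHC-like cell 11), by DESeq2 (adjusted p = 0.000742 and 0.000262) and by limma-trend, where the differences of 5.72 and 4.47 (adjusted p = 5.09e-08 and 1.11e-06) compare with medians of 1.25 and 1.37 over all genes tested.

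Eya1 (chromosome 1, 14168954 to 14310235, minus strand) was the member that SCs already carried. Its level was between 107 and 686 CPM in WT_P60 SCs (median 234 CPM, 16 of 16 cells), between 9.60 and 360 CPM in OHC-like cells (median 158 CPM, 11 of 11) and between 53.3 and 570 CPM in nascent HCs (median 157 CPM, 16 of 16). Failing SCs ran from 0 to 584 CPM (median 181 CPM, 14 of 15 cells). WT_P30 OHCs were the most divided, from 0 to 417 CPM with a median of 32.7 CPM, and 4 of 17 had no read of it. The groups overlapped, and edgeR called Eya1 in none of the 10 comparisons. In WT_P30 OHCs against WT_P60 SCs its log2 fold change was -1.05 (SE 0.67, adjusted p = 0.303), whereas limma-trend called it lower in OHCs by -2.95 (SE 0.70, adjusted p = 0.000462).

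Nhlh1, Bcl11b and Tbx2 were rare in all 5 groups. Nhlh1 (chromosome 1, 172052292 to 172057573, minus strand) was detected in 5 cells, of which 1 was a WT_P30 OHC at 3.21 CPM. The other 4 were OHC-like cells 10 and 11 at 46.4 and 112 CPM and nascent HCs 2 and 15 at 190 and 29.3 CPM. All 4 belonged to library run E, which held 7 cells, and the part of the run was not tested. Without the filter on low counts, edgeR did not call Nhlh1 in OHC-like cells or nascent HCs against WT_P60 SCs (adjusted p = 0.00183 and 0.00125).

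Tbx2 (chromosome 11, 85832551 to 85841948, plus strand) was detected in 8 of the 75 cells, of which 3 were OHC-like cells, and never above 22.1 CPM. Bcl11b (chromosome 12, 107910403 to 108003602, minus strand) was detected in 3 cells, 2 WT_P60 SCs at 2.02 and 3.06 CPM and nascent HC 2 at 22.4 CPM. At 0 of 17 WT_P30 OHCs and 0 of 11 OHC-like cells, a share of up to 17.6% and 27.3% with Bcl11b is allowed as 3 over the number of cells, and of 19.5% and 28.5% by the Clopper-Pearson interval. Neither gene was called in any comparison without the filter.

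**Figure D3:**
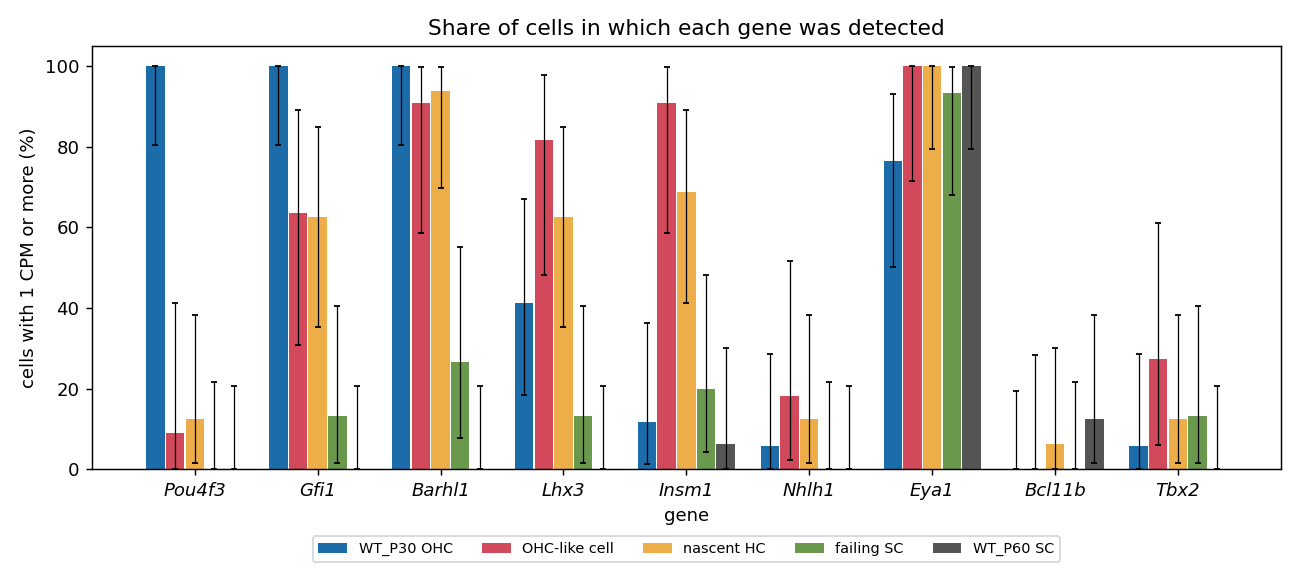
Share of cells (y axis, percent) in which each gene was detected at 1 CPM or more, as bars by group from 0, with 95% Clopper-Pearson intervals that cover counting error only. The share for Pou4f3 is 100% of WT_P30 OHCs and 9.09% of OHC-like cells, while that of Insm1 is 11.8% of WT_P30 OHCs and 90.9% of OHC-like cells.

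Counted by comparison, edgeR called 5 of the 6 tested members higher in the OHC-like group than among WT_P60 SCs (Barhl1, Lhx3, Gfi1, Pou4f3 and Insm1), beside 6.42% of all genes. With the number of detected genes as a covariate, edgeR called 3 in this comparison and 3 in nascent HCs against WT_P60 SCs, and Pou4f3 and Insm1 lost their calls in both. The share of all genes called with this covariate is not given. limma-trend called 3, Barhl1, Insm1 and Lhx3, beside 8.95%. In nascent HCs against WT_P60 SCs, edgeR called the same 5 genes beside 7.77% of all genes, and limma-trend called 4, all but Pou4f3 and Eya1, beside 10.3%. These comparisons share the WT_P60 SCs, in which Pou4f3, Gfi1, Barhl1 and Lhx3 had no read. These genes passed the low-count filter only through groups in which they were on, so the counts describe the members and do not test them as a list.

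Between OHC-like cells and WT_P30 OHCs, edgeR called 0 of 6 members (2 at an unadjusted p under 0.05), where 10.6% of all genes were called. limma-trend called Insm1 higher and Pou4f3 and Gfi1 lower, where 11.9% were called, and DESeq2 called Insm1. Between nascent HCs and WT_P30 OHCs, edgeR again called 0 of 6 (3 at an unadjusted p under 0.05) beside 13.2% of all genes. limma-trend called Insm1 higher and Pou4f3 and Gfi1 lower there as well, beside 17.9%. In the direct comparison of OHC-like cells with nascent HCs, 0 of 6 members were called by edgeR, DESeq2 or limma-trend, and 0 had an unadjusted p under 0.05 by edgeR or limma-trend. Of all genes, edgeR called 0.0787% and limma-trend 0.00874%, so few genes of any kind were called between these groups. The edgeR difference of Barhl1 between them was 0.04 (SE 1.07) and that of Insm1 0.31 (SE 1.46), so these SEs span a change of more than 1 log2 unit either way. Without nascent HC 2, Pou4f3 was called between the groups (adjusted p = 0.000599).

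Failing SCs had been exposed to the same transgenes, with Atoh1 between 383 and 28402 CPM in 15 of 15 cells, and mostly lacked the members other than Eya1. Of Gfi1, Barhl1, Lhx3 and Insm1, 8 of these 15 cells had none at 1 CPM, 5 had 1 and 1 had 2. The remaining cell, failing SC 7, had all 4, at 346, 65.4, 140 and 149 CPM, with 3250 CPM of Atoh1 but 2.25 CPM of Myo7a and no read of Slc26a5 or Pou4f3. Against WT_P60 SCs, edgeR called 3 of 6 members higher (Barhl1, Gfi1 and Lhx3) beside 4.17% of all genes, and limma-trend called 0 (1 at an unadjusted p under 0.05) beside 3.95%. Lhx3 lost its call with the number of detected genes as a covariate. The calls of Gfi1 and Lhx3 rested on failing SC 7, without which their adjusted p was 0.00499 and 0.013. Insm1 missed the threshold in this comparison (adjusted p = 0.0251) but was called without WT_P60 SC 1, the one SC with a read of it (adjusted p = 0.000144). Barhl1, without a read in WT_P60 SCs and detected in 4 of 15 failing SCs, was at least 46.4-fold higher by its mean. edgeR called it whichever single cell was left out, but limma-trend did not call it (adjusted p = 0.194). Against WT_P30 OHCs, edgeR called Pou4f3 lower (adjusted p = 6.56e-06, 1 of 6 members beside 14.7%), and limma-trend called Barhl1, Gfi1 and Pou4f3 lower beside 13.6%. Without failing SC 7, edgeR too called Gfi1 lower (adjusted p = 5.59e-06), and without WT_P30 OHC 6 it called Insm1 higher (adjusted p = 0.000478).

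OHC-like cells and nascent HCs differed from failing SCs in Barhl1 and Insm1 on the log scale. limma-trend called 3 of 6 members higher in OHC-like cells (Barhl1, Insm1 and Lhx3) beside 3.04% of all genes, and 2 higher in nascent HCs (Barhl1 and Insm1) beside 2.62%. The difference of Insm1 was 4.90 for OHC-like cells (SE 0.86, adjusted p = 1.37e-05) and 3.66 for nascent HCs (SE 0.78, adjusted p = 0.000454). edgeR called 1 member in each comparison, Pou4f3, beside 1.03% and 1.35% of all genes. The adjusted p was 0.946 without OHC-like cell 11 and 0.249 without nascent HC 2, and the calls were lost in 15 and 35 of the 75 fits that each left out 1 cell. With library run as a term, or with the number of detected genes as a covariate, edgeR called 0 members in both comparisons. limma-trend was fitted without a run term, so differences between runs may enter its calls. Without failing SC 7, Gfi1 was called higher in nascent HCs (adjusted p = 0.000645).

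Within library runs the same genes could be compared only where a run held both kinds of cell. In run A, none of the 6 cells (1 OHC-like cell, 1 nascent HC and 4 failing SCs) had a read of Pou4f3, Gfi1, Barhl1 or Lhx3. Insm1 there was at 34.0 CPM in the OHC-like cell and at 0 in the nascent HC, and 1 of the 4 failing SCs had it at 47.0 CPM. In run C, the 1 nascent HC had Gfi1 at 38.8, Barhl1 at 6.35, Lhx3 at 67.3 and Insm1 at 93.3 CPM, and of its 10 failing SCs 3 had Barhl1 and 2 had each of Gfi1, Lhx3 and Insm1. In run E, Barhl1 lay between 151 and 574 CPM in 6 OHC-like cells and nascent HCs and at 18.4 CPM in the 1 failing SC. Insm1 in that run was detected in 2 of 2 OHC-like cells and 2 of 4 nascent HCs, and was at 0 in the failing SC. Runs B and D held no failing SC.

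**Figure D4:**
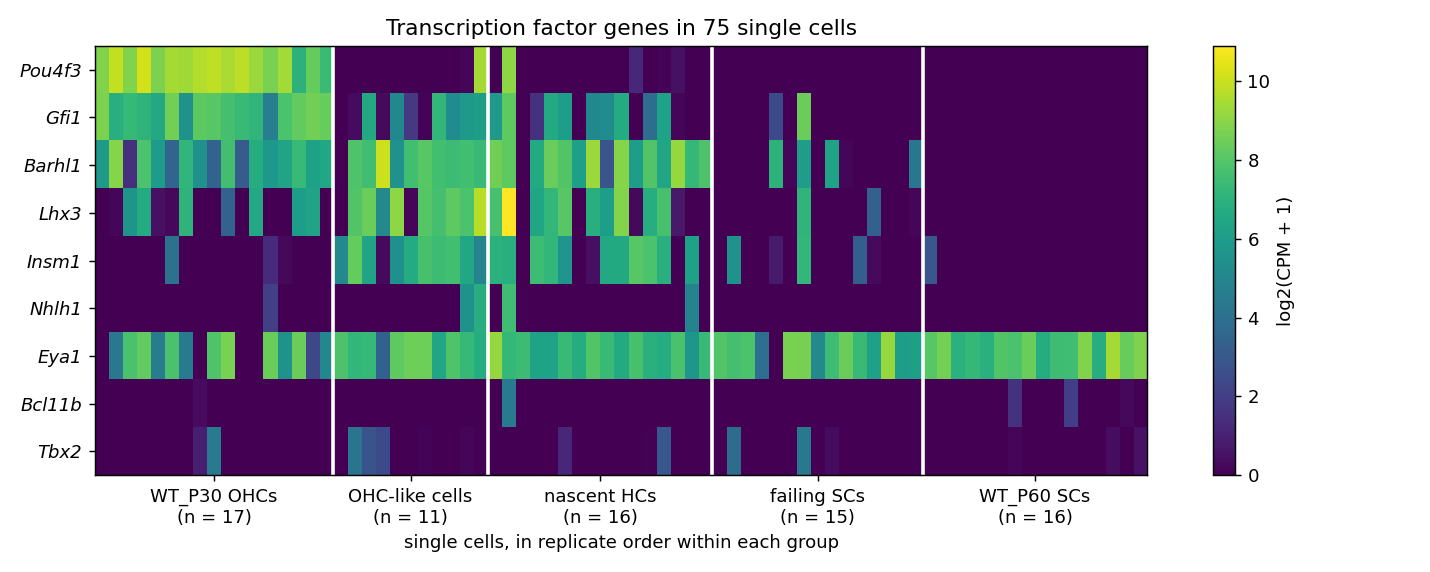
Each column is one of 75 cells in replicate order within its group and each row one of the 9 genes, colored by log2(CPM + 1). Gfi1, Barhl1, Lhx3 and Insm1 are all on in 6 of 11 OHC-like cells and 9 of 16 nascent HCs, the Pou4f3 row is without a read in 36 of the 42 induced columns, and failing SC 7 is the one column of its group in which these 4 genes are all on.

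Gfi1, Barhl1, Lhx3 and Insm1 tended to be on in the same induced cells. All 4 were detected together in 6 of 11 OHC-like cells, 9 of 16 nascent HCs and 1 of 15 failing SCs, and in 0 of 17 WT_P30 OHCs, where Insm1 was mostly missing. At least 1 of the 4 was on without Pou4f3 in 30 of the 42 induced cells, and Gfi1 was on without Pou4f3 in 17. Across the 42 induced cells, which share library runs and differ in depth, Pearson's r of log2(CPM + 1) was 0.84 between Gfi1 and Lhx3, 0.69 between Lhx3 and Insm1, 0.63 between Barhl1 and Lhx3, 0.61 between Gfi1 and Insm1, 0.54 between Gfi1 and Barhl1 and 0.50 between Barhl1 and Insm1. Pou4f3, with reads in 6 of these cells, had an r of 0.33 with Gfi1 and 0.36 with Lhx3. Barhl1 had an r of 0.78 with Myo7a and 0.40 with Slc26a5. The r with Atoh1 was 0.39 for Barhl1, 0.31 for Insm1, 0.28 for Lhx3, 0.12 for Gfi1 and 0.02 for Pou4f3. With Ikzf2 it was -0.47 for Gfi1, -0.45 for Barhl1, -0.45 for Lhx3, -0.23 for Insm1 and -0.19 for Pou4f3. All of these values pool OHC-like cells, nascent HCs and failing SCs, so differences between these groups enter them.

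By the same measure over the 42 cells, the genes most like Lhx3 were Nrsn1 (r = 0.95), Lhfpl5 (0.90) and St8sia3 (0.88). Those most like Gfi1 were Lhx3 (0.84), Snap25 (0.81) and Rbm24 (0.80), and those most like Barhl1 were Plekha6 (0.86), Neurod6 (0.85) and Rundc3a (0.85). For Insm1 they were Dner (0.80), Gm12962 (0.77) and Snap25 (0.77), and for Eya1, which was on in 41 of the 42 cells, Tspyl1 (0.77), Mtx2 (0.73) and Cwc15 (0.72). Lhfpl5 encodes a subunit of the mechanotransduction complex, Snap25 a protein of vesicle fusion and Rbm24 an RNA-binding protein of hair cells.

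Of 26 other transcription factors of hair cells, 22 were tested. In OHC-like cells against WT_P60 SCs, edgeR called 5 higher (Atoh1, Neurod6, St18, Ikzf2 and Hes6) and 1 lower (Rorb), beside the 6.42% of all genes called, and the median limma-trend difference of the list was 1.23, against 0.47 over all genes. Reads of Atoh1 and Ikzf2 include the transgenes. Neurod6, a helix-loop-helix factor of neurons, had no read in any wild-type cell and averaged 398 ± 294 CPM (SD, n = 11) among OHC-like cells and 474 ± 247 CPM (SD, n = 16) among nascent HCs. St18, a zinc-finger factor, was likewise without a read in wild-type cells and averaged 99.8 ± 130 CPM (SD, n = 11) among OHC-like cells. In WT_P30 OHCs against WT_P60 SCs, edgeR called 2 of the 22 higher (Six4 and Lbh) and 2 lower (Sox2 and Prox1), a share near the 15.3% of all genes called there. Between OHC-like cells and WT_P30 OHCs it called 5 higher (Atoh1, Neurod6, St18, Sox2 and Prox1), beside 10.6% of all genes, and the list's median limma-trend difference of 0.93 lay below the 1.25 of all genes.

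Of 12 paralogues of the members, 4 were tested. Eya2, a paralogue of Eya1, rose in OHC-like cells over WT_P60 SCs (adjusted p = 2.43e-07 by edgeR) and than in WT_P30 OHCs (log2 fold change 8.68, SE 1.63, adjusted p = 3.39e-05). Its mean among OHC-like cells was 372 ± 344 CPM (SD, n = 11), and it was without a read in the 16 WT_P60 SCs and detected in 1 of 17 WT_P30 OHCs. Insm2, a paralogue of Insm1, was detected in 9 of 11 OHC-like cells (median 70.7 CPM) and 2 of 17 WT_P30 OHCs, and was called against both wild-type groups by limma-trend but not by edgeR (adjusted p = 0.0635 against WT_P60 SCs). Of the paralogues of Pou4f3, Pou4f2 had no read in any cell, and Pou4f1 was detected in 4 of 11 OHC-like cells, with a median of 0 and a highest value of 71.8 CPM. Of 14 neuronal genes, 4 were tested. edgeR called 1 of them, Stmn3, higher in the OHC-like group than among WT_P60 SCs (8.89 ± 18.9 CPM, SD, n = 11, adjusted p = 0.000933), beside 6.42% of all genes. In that comparison limma-trend called 0 of the 4. Stmn3 was also called by edgeR in WT_P30 OHCs over WT_P60 SCs, at a larger mean (16.3 ± 27.0 CPM, SD, n = 17, adjusted p = 0.000211).

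Among 3 genes known as targets of Pou4f3 (Bdnf, Ntf3 and Caprin1), 2 were tested. edgeR called neither in OHC-like cells against WT_P60 SCs or WT_P30 OHCs, beside 6.42% and 10.6% of all genes. Bdnf, a neurotrophin, was detected in 13 of 17 WT_P30 OHCs (median 89.3 CPM), 2 of 11 OHC-like cells, 2 of 16 nascent HCs, 4 of 15 failing SCs and 2 of 16 WT_P60 SCs. Its edgeR log2 fold change between OHC-like cells and WT_P30 OHCs was -2.49 (SE 1.96, adjusted p = 0.504), and limma-trend called it lower. Caprin1, an RNA-binding protein, was detected in 9 of 11 OHC-like cells and 12 of 17 WT_P30 OHCs. Of 18 genes of hair cell differentiation, which include the sorting markers Myo7a and Slc26a5, edgeR called 14 higher than WT_P60 SCs in the OHC-like group and 17 in WT_P30 OHCs, beside 6.42% and 15.3% of all genes tested. Against WT_P30 OHCs, in OHC-like cells it called 2 of the 18 lower (Otof and Slc26a5), a share near the 10.6% of all genes called there. limma-trend called 8 lower and 1 higher, Srrm4, a splicing factor, beside 11.9% of all genes.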

How the data were processed

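The values are raw read counts per gene in 75 cells, as the authors deposited them in 1 table. Reads had been checked with FastQC 0.11.9, trimmed with Trimmomatic 0.39, aligned to GRCm38 with HISAT2 2.1.0 and counted with HTSeq 0.10.0, per the submitters' processing notes and the study's methods. The annotation release and the use of strand are not given in the sources used here. The counts carried no molecular identifiers, so intervals and floors cover counting error only, and the total per cell limits what a count of 0 can show. A row for WPRE, no mouse gene, held 0.0254% of counts and was left out.

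The 10 comparisons among 5 groups were computed from the deposited counts with edgeR 4.0.16 in R 4.3.3 (TMM scaling, a minimum count of 10 by group, a fit of all 75 cells, the quasi-likelihood F-test and Benjamini-Hochberg adjustment over 11443 of 55291 genes). SEs are the absolute log2 fold change divided by the square root of F. A call needed an adjusted p under 0.001 with an absolute log2 fold change over 2. Levels are CPM by TMM-scaled library size, and detection is 1 CPM of the unscaled total. limma 3.58.1 (limma-trend, pseudocount 1 CPM), DESeq2 1.42.0, other scalings, filters, covariates, thinning and left-out cells were alternatives. No 2 cells had identical counts. The edgeR fit was tested on simulated data for OHC-like cells against WT_P60 SCs only. That simulation made no gene absent from a whole group, as several members were from WT_P60 SCs.

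The 9 genes and all gene lists were chosen with earlier results of these data known. All 9 are named, together with the genes of smallest adjusted p per list and the 3 genes with the highest correlation over the 42 induced cells for members detected in at least 10 of them. The other genes of the lists that are named, and the cells singled out by number, were chosen after their values were seen. Positions and exon lengths are from GENCODE M21. Library runs were grouped by the library numbers in the sample labels, which do not say what a run shared. Replicate numbers only name cells: of 137 same-numbered pairs across groups, 1 had a correlation of deviations over 0.1, so they pair nothing. Scripts used python 3.11.15 with numpy 2.4.6, pandas 2.3.3, scipy 1.17.1 and matplotlib 3.10.9. The summed level of the glial marker list is not reported here.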

Additional observations from a re-analysis of the deposited data

How the results depend on the processing

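The cells left out, the covariates and the tool set how many of the 6 tested members were called, and no called member changed direction under any alternative listed. Shares of all genes called are given only for the main edgeR fit and limma-trend. A changed count under another setting may therefore not be particular to the members. With the number of genes detected as a covariate, 3 members were called in OHC-like cells and 3 in nascent HCs against WT_P60 SCs (5 and 5 otherwise), and 0 in both against failing SCs. A fit of only the 2 groups compared, in which 6 of the 20 called values could be fitted because the gene otherwise missed the filter, called 1 in OHC-like cells, 1 in nascent HCs and 0 in failing SCs against WT_P60 SCs, and 0 in both comparisons with failing SCs. With library run as a term these last 2 comparisons also gave 0, and without the 3 cells with the fewest genes they gave 0. DESeq2 size factors and thinning every cell to the smallest total each gave 0 for nascent HCs against failing SCs. Against WT_P30 OHCs, DESeq2, leaving out OHC-like cell 4 and leaving out the 3 cells with the fewest genes each called 1 member, in OHC-like cells and in nascent HCs. Looser thresholds (adjusted p 0.05, log2 fold change 1) called 1 in each of those 2 comparisons and 2 in each of OHC-like cells and nascent HCs against failing SCs. limma-trend, added after the data were seen, called 3 and 0 members in the OHC-like and failing SC groups against WT_P60 SCs, 3 in each of the 3 comparisons with WT_P30 OHCs, and 3 and 2 in OHC-like cells and nascent HCs against failing SCs. With replicate number as a block, which pairs nothing here, 0 members were called in failing SCs against WT_P60 SCs, and 1, 2 and 2 in the OHC-like, nascent HC and failing SC groups against WT_P30 OHCs. Leaving out each of the 75 cells in turn, also added later, gave 4 to 4 members for WT_P30 OHCs against WT_P60 SCs, 4 to 5 for OHC-like cells and for nascent HCs, and 1 to 4 for failing SCs. Against WT_P30 OHCs it gave 0 to 2, 0 to 1 and 1 to 2 for the same 3 groups. The 3 comparisons among induced cells gave 0 to 1. Removing the filter on low counts moved no count of members. Detection at any count in place of 1 CPM moved Gfi1 from 7 to 10 and Insm1 from 10 to 11 of 11 OHC-like cells beyond their intervals, and thinning moved none of the 45 detection counts beyond them. The causes were not tested. DESeq2 size factors moved the median log2 fold change of all genes by -0.21 in OHC-like cells and in nascent HCs against WT_P60 SCs and by between -0.14 and 0.05 in the other comparisons.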
